A study of Mus musculus with 8 samples.

Results

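Mediator is the large protein complex that carries signals from DNA-bound activators to RNA polymerase II at promoters. Its core is built of a head, a middle and a tail, which the scaffold subunit Med14 holds together. A separable kinase module, made of cyclin C (Ccnc), a cyclin-dependent kinase (Cdk8 or its paralogue Cdk19), Med12 or Med12l, and Med13 or Med13l, docks on the core and controls its contact with the polymerase. The genes examined were all rows of the expression table named Med with a number, with or without a final l, together with Cdk8, Cdk19 and Ccnc. The rule gave 33 of the 10720 genes in the table, and all 33 had therefore passed the minimum mean count by which the study kept genes. No measured value entered the rule.

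The cells were hematopoietic stem cells (HSCs) from the bone marrow of adult C57BL/6 mice, sorted as lineage-negative Sca1+ cKit+ (LSK) CD150+ CD34- CD48- cells and then picked by hand for sequencing. WT mice carried the floxed Med23 allele on both chromosomes (Med23 L/L) without the Mx1-cre transgene, and KO mice were littermates with the same alleles and Mx1-cre. Mx1-cre is switched on by interferon, which injected poly(I:C) induces, and is not limited to blood cells. The study's methods give poly(I:C) injection as the way in which deletion by Mx1-cre was induced. Mice of both genotypes after poly(I:C) are described for the blood counts, and the labels of the single-cell libraries do not name the agent. The study asked which transcripts Med23 controls in single HSCs.

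The labels list 4 libraries for each genotype, but the cell columns of the table carry the genotype and no library. Each genotype was therefore 1 pool of cells without replicates, named WT and KO as labelled, and no difference between the pools could be tested. Every interval given here is a 95% counting interval, which covers the sampling of molecules or cells and not the spread between mice or libraries. The genotype, the library and the mouse cannot be told apart in these pools.

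The table held 304 WT and 282 KO cells, of which 259 and 234 had at least 2000 genes and 20000 unique molecular identifiers (UMIs, 1 for each captured molecule) and were kept. Kept cells had a median of 59649 UMIs in WT and 50281 in KO, and ranged from 20027 to 496293. The 10 stem cell markers on the list used, which includes Cd34 and Cd48, were all in the table and at least 1 was present in 100% of kept cells. Of the macrophage and T cell marker lists, 0 of 4 genes each were among the rows of the table, and the 2 of 6 neutrophil genes present summed to 23.6 and 11.4 counts of UMIs per 1000000 (CPM) in WT and KO. The erythroid list (2 of 5 genes) gave 10.1 and 63.5 CPM, the B cell list (1 of 4) 55.4 and 86.3 CPM, and the stroma and endothelium list (4 of 6) 63.5 and 97.3 CPM, and the part of such transcripts in the results was not tested. Transcripts typical of oocytes, which no HSC sort is meant to hold, stood apart. The 21 of 23 listed oocyte genes in the table summed to 2425 CPM in WT and 52.9 CPM in KO, and exceeded 1000 CPM in 64 WT cells (24.7%) and 3 KO cells (1.28%). These are named cells with oocyte transcripts below. Leaving them out did not remove the signal. The other cells had a median of 128 CPM of the listed oocyte genes in WT and 12.6 CPM in KO. Thinned to 20000 UMIs, 83.4% of all kept WT cells and 34.6% of KO cells held such a UMI. Counts and called members are given with and without the cells over 1000 CPM, as are some of the other members that moved with them.

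Promoters of the members show the sequence around which their transcription starts. RefSeq promoter windows of 300 bases, on mouse build GRCm38.p6, matched 28 of the 33 members with 32 windows. The 100 bases before the start are printed 5′ to 3′ on the gene's own strand for the most abundant member (Med28), the least abundant (Cdk8), further kinase module members that moved in opposite directions (Med12, Med13l and Ccnc) and the member with the largest excess in cells with oocyte transcripts (Med27). Capitals mark matches, on either strand, to CCGGAA (the core of ETS factor sites), GGGCGG (the GC box), CCAAT (the CCAAT box) or TATAAA (the TATA box).
Med28, chr5:45520129-45520228, plus strand: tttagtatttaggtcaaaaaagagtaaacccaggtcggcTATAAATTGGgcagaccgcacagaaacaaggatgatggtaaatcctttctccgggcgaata
Cdk8, chr5:146231150-146231249, plus strand: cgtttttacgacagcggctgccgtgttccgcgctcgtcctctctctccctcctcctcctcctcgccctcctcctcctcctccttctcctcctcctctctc
Med12, chrX:101273991-101274090, plus strand: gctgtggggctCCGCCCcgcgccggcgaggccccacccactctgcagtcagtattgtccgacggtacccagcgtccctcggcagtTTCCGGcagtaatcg
Med13l, chr5:118560619-118560718, plus strand: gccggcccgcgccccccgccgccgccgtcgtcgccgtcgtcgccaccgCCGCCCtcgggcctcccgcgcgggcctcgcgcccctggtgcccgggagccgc
Ccnc, chr4:21727601-21727700, plus strand: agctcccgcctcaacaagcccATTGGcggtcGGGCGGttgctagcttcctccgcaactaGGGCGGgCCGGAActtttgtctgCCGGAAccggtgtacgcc
Med27, chr2:29346710-29346809, plus strand: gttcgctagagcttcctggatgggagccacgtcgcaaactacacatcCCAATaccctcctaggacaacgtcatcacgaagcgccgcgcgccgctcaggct

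The Med28 stretch held a TATA box match whose last base is also the start of a CCAAT box match on the other strand, whereas the Cdk8 stretch held none of the motifs searched. Med27 had another window, not printed, which held none of the motifs in its 300 bases. The ETS core, the kind of sequence bound by Elk1, the factor through which Med23 is best known to act, lay in 16 of the 32 member windows (50%) and in 28.9% of the 10758 windows of all genes in the table. It was found for 14 of the 28 matched members, among them Med6, Med15, Med20, Med12 and Ccnc, and not for Med27. Cdk19 and Med23 had no matched window. Whether this motif goes with a difference between the pools was not tested. TGCGCA, the core of the NRF1 site, lay in 25% of member windows and 14.4% of all windows, and AAGATGG, the YY1 site, in 12.5% and 7.45%. The GC box (62.5% and 62.9%), the CCAAT box (37.5% and 37.9%) and the TATA box (9.38% and 6.85%) gave shares closer to those of all windows. These matches describe the letters of the windows, and binding was not measured.

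Med23, a tail subunit and the target of the deletion, was among the least abundant members, and its summed UMIs were no fewer per 1000000 in the cells labelled KO. The pools held 122 and 117 of its UMIs, or 5.68 CPM (4.72 to 6.78) for WT and 7.23 CPM (5.98 to 8.67) for KO, and the log2 ratio of KO over WT was 0.35 (-0.03 to 0.73). The cells read differently from the sums. A Med23 UMI was found in 47 of 259 WT cells (18.1%) and 27 of 234 KO cells (11.5%), and the 3 KO cells with the most held 28, 22 and 16 UMIs, against 14, 9 and 8 in WT. The KO cells, which were sequenced less deeply, thus had more of their Med23 UMIs in a few cells. When every cell was thinned to 20000 UMIs, 20 WT cells (7.72%, 4.78 to 11.7) and 12 KO cells (5.13%, 2.68 to 8.79) kept a UMI, and the level was 7.72 CPM in WT and 7.48 CPM in KO. The log2 ratio was -0.05 in these thinned cells, -0.04 without the top Med23 cell of each pool and -0.40 with a minimum of 3000 genes and 30000 UMIs, so no direction is read from it. The library method primes at the poly(A) tail and the position of the deleted exons is not given in the sources used here. The tag may lie outside the deleted part, and the Med23 level then does not check the genotype label. Apart from these cells, the study reports efficient loss of Med23 in the hematopoietic system after poly(I:C), with the Mediator complex still stable.

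The Mediator transcripts together made up 1554 CPM in WT (33371 UMIs) and 1490 CPM in KO (24110 UMIs). With 1 tag per molecule, levels of different genes could be set side by side without a correction for length. The members spanned a 57.0-fold range over both pools, with a median of 37.3 CPM, against a median of 27 CPM over all genes in the table. Med28 stood far above the rest, at 309 CPM in WT (302 to 317) and 252 CPM in KO (244 to 260), and supplied 19.9% and 16.9% of all Mediator UMIs. By the level over both pools summed, next came Med10, a middle subunit, at 81.0 and 75.7 CPM, and Med8, which belongs to the movable jaw of the head, at 75.5 and 80.9 CPM. The order of these next members was not the same in each pool: Med29 led them in WT (81.4 CPM) and Med13l in KO (87.4 CPM). Over both pools Med28 was 3.62-fold above Med10. At the low end lay Cdk8 (5.54 and 4.26 CPM), Med23 and Med12l (7.17 and 6.61 CPM), and these 3 were the members under 10 CPM over both pools together. The order of the members was much alike in the pools, with a Spearman's rho of 0.923 across the 33 members. Genes are not independent replicates, and this value is a description.

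**Figure D1:**
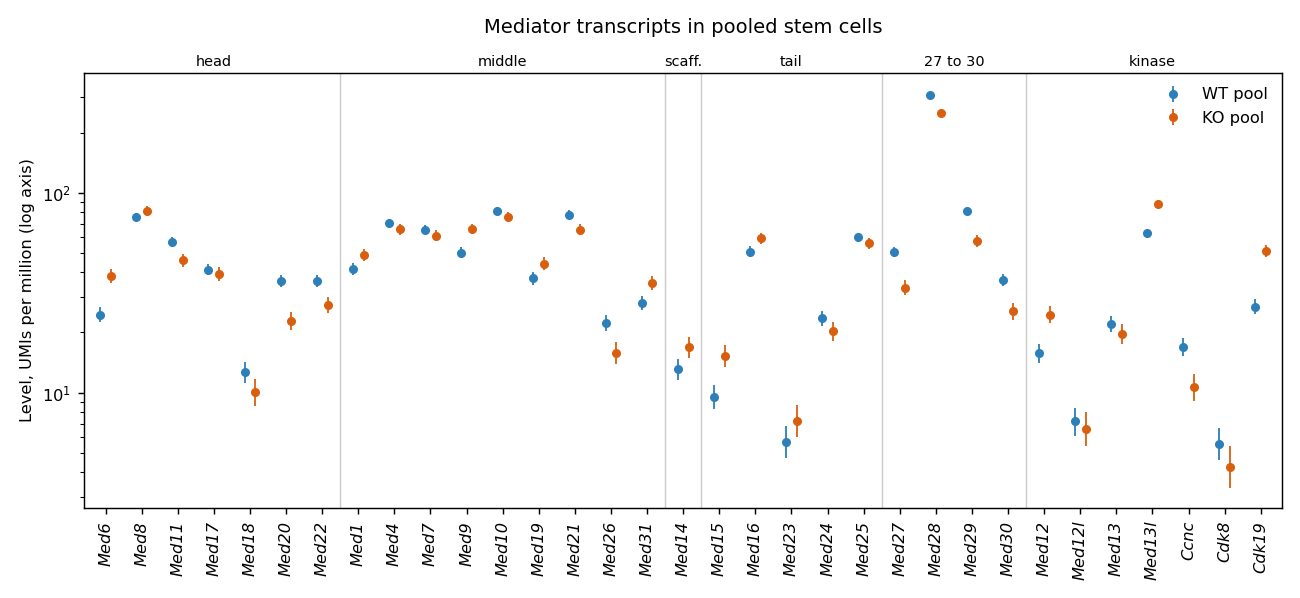
Level of each of the 33 Mediator transcripts in WT (blue) and the KO pool (orange), in CPM on a log axis, grouped by module. Bars are 95% Poisson counting intervals; Med28 lies at 309 and 252, and Cdk8, Med23 and Med12l lie below 10 in both pools.

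By module, the middle (9 genes) and Med27 to Med30 (4 genes, set apart because their place between head and tail varies among descriptions of the complex) were the most abundant in WT, at 474 and 478 CPM. The 7 head genes summed to 283 CPM, the 7 kinase module genes to 157 CPM and the 5 tail genes to 149 CPM. Med14, the single scaffold subunit on which the other modules are assembled, gave 13.1 CPM in WT (11.6 to 14.7) and 16.9 CPM in KO (14.9 to 19), so that its transcript was far scarcer than those of most subunits it holds. Transcript levels do not give the proportions of the proteins.

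In single cells most members were detected in a minority of cells. At 20000 UMIs per cell, the share of cells with a UMI had a median over the members of 23.9% in WT and 24.8% in KO, against 19.3% and 18.8% over all genes. Med28 was found in 81.9% of WT cells (76.6 to 86.4) and 75.2% of KO cells (69.2 to 80.6), and Med16, a tail subunit whose transcript end shares sequence with many other genes and whose level is therefore uncertain, in 49.0% and 49.6%. Cdk8 was found in 4.63% (2.42 to 7.95) and 6.84% (3.96 to 10.9). A cell held a median of 9 of the 33 members in WT (quartiles 7 and 11, range 2 to 17) and 8 in KO (quartiles 7 and 10, range 2 to 18), and a median of 28 Mediator UMIs in both. Without thinning, no cell held more than 24 members. A transcript missed in a cell at this depth cannot be called absent from it.

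**Figure D2:**
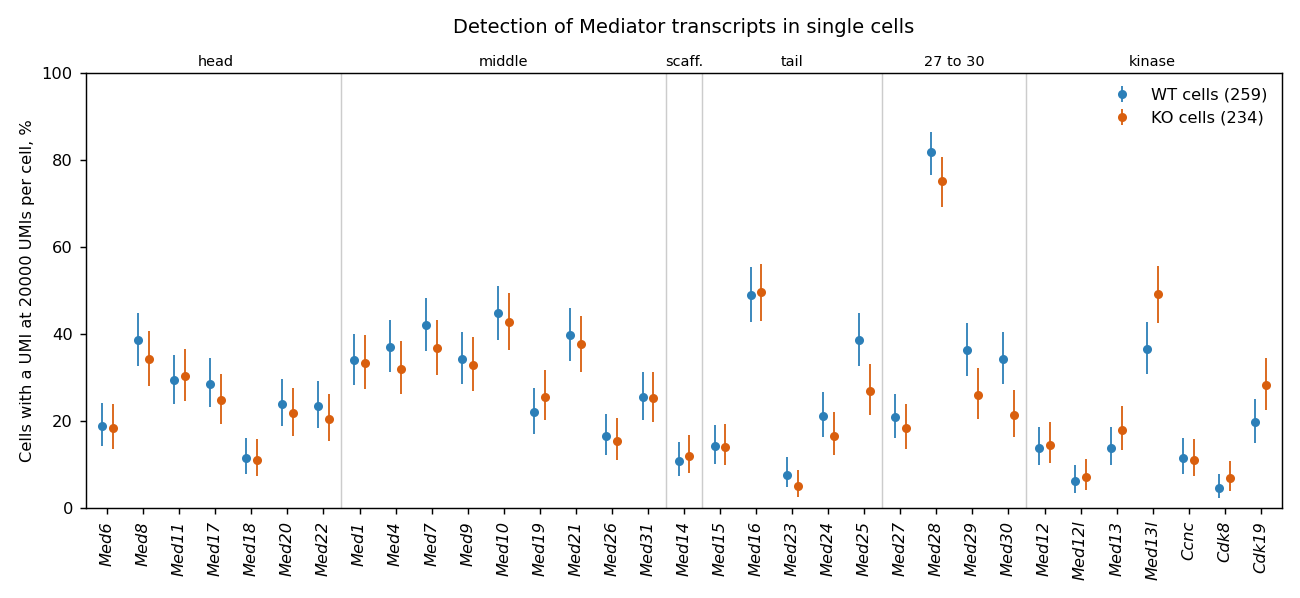
Share of kept cells with at least 1 UMI of each Mediator transcript after every cell was thinned to 20000 UMIs, for 259 WT cells (blue) and 234 KO cells (orange), in percent, with exact binomial 95% intervals. Med28 was found in most cells; Med30 was the only member whose intervals did not overlap.

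The UMIs of a member were unevenly spread over cells. The ratio of variance to mean of the thinned counts, which is near 1 when molecules are scattered over cells by chance alone, ranged from 2.0 (Med15, WT) to 10.7 (Med29, KO) over the members and pools. Its median over the members was 4.6, close to the 4.63 over all genes, and it exceeded 2 for 98.5% of genes in the table. The single top cell held a median of 8.75% of that member's UMIs in WT and 10.4% in KO. For Med12l in WT a single cell held 67 of 154 UMIs (43.5%). Counting intervals on summed UMIs are therefore narrower than the spread between cells.

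Comparing the pools asks whether the other Mediator transcripts differed where Med23 was targeted. Of the 33 members, 4 were at least 1.5-fold higher in the pool labelled KO with an interval that leaves out no change, 3 were as much lower and 26 were neither. By the same rule 17.2% of all genes in the table were higher and 15.5% lower, against 12.1% and 9.09% of the members, and nothing particular to Mediator is read from these counts. The median log2 ratio was -0.10 over the members and 0.02 over all genes, with 13 members above 0 and 20 below. Without the cells with oocyte transcripts the split turned to 18 above and 15 below, and in cells thinned to 20000 UMIs to 19 and 14, so no direction of the members as a whole is read from it. None passed 2-fold, which 6.98% of all genes did upwards and 7.94% downwards. The summed Mediator UMIs had a log2 ratio of -0.061 (-0.084 to -0.037).

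Of the 4 higher members, 2 belong to the kinase module, 1 to the tail and 1 to the head. Cdk19, a kinase of the kinase module, had the largest ratio, with 27 CPM in WT (24.8 to 29.2) and 51.1 CPM in KO (47.7 to 54.7), a log2 ratio of 0.92 (0.77 to 1.08). Med12, which activates the module's kinase through cyclin C, went from 15.7 to 24.5 CPM, a log2 ratio of 0.64 (0.43 to 0.85). Med15, the tail subunit contacted by lipid-regulating activators, went from 9.55 to 15.3 CPM (0.68, 0.40 to 0.95), and Med6, a conserved head subunit, from 24.5 to 38.3 CPM (0.64, 0.47 to 0.81). The last 500 bases of Med12 match the annotated transcript Gm21986, on the same strand, at 98.8% identity over 499 bases, so UMIs of the pair could not be told apart.

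The 3 lower members were Ccnc, Med20 and Med27. Ccnc, the cyclin partner of both kinases, gave 16.9 CPM in WT (15.2 to 18.7) and 10.6 CPM in KO (9.10 to 12.3), a log2 ratio of -0.67 (-0.94 to -0.40). Med20, which pairs with Med18 in the head, went from 36.2 to 22.9 CPM (-0.66, -0.84 to -0.48), and Med27 from 50.5 to 33.6 CPM (-0.59, -0.74 to -0.44). Within the kinase module, a kinase and its cyclin partner thus lay on opposite sides of no change. The last exon of Ccnc lies opposite an exon of Tstd3, and the counting strand is not given in the sources used here.

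**Figure D3:**
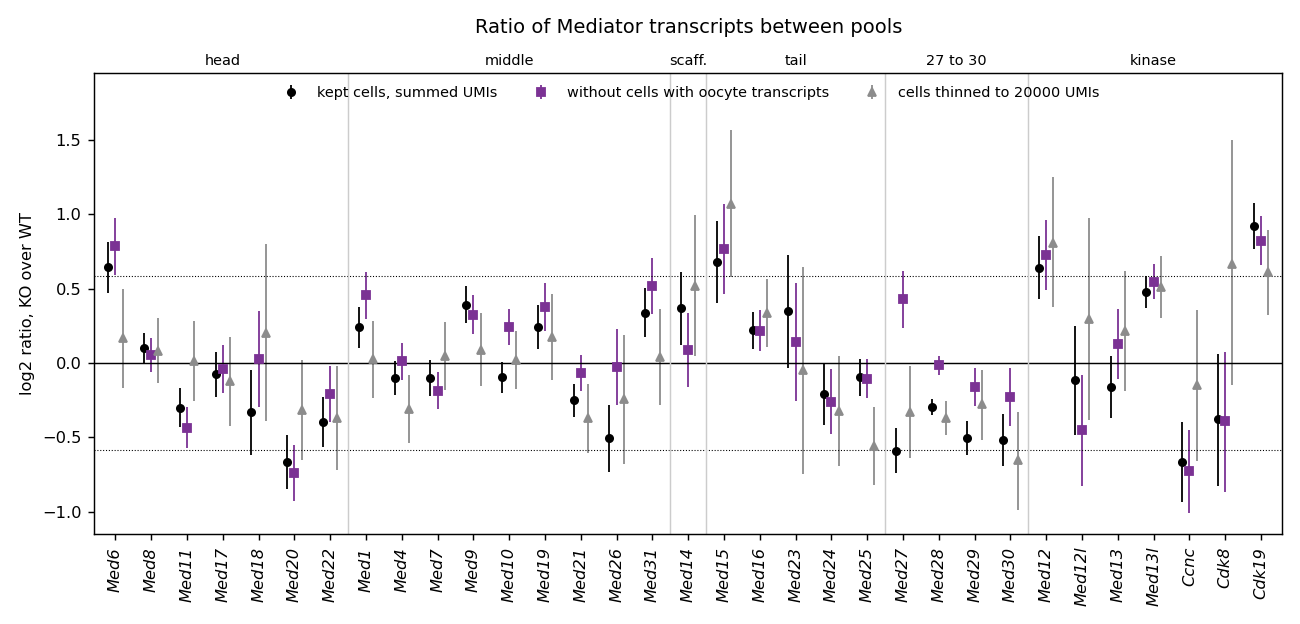
Log2 ratio of KO over WT for each member from the summed UMIs of all kept cells (black), without cells holding over 1000 CPM of oocyte transcripts (purple) and with each cell thinned to 20000 UMIs (grey). Bars are 95% counting intervals, dotted lines mark 1.5-fold, and Med27 lies at -0.59 in black and 0.43 in purple.

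Levels and shares of cells did not always move together. Of the members called by level, Med6 (18.9% of WT and 18.4% of KO cells), Med15 (14.3% and 14.1%), Med12 (13.9% and 14.5%) and Ccnc (11.6% and 11.1%) were detected in nearly equal shares of thinned cells, and their intervals overlapped. For Med15 and Med12 the thinned cells that held the transcript held more of it in KO, with 1.49 and 3.15 UMIs per positive cell for Med15 and 2.06 and 3.44 for Med12. Neither stayed past 1.5-fold at 3000 genes and 30000 UMIs (log2 ratios of 0.54 for Med15 and 0.53 for Med12), without its top cells (0.46 and 0.47) or with the authors' normalized values (0.51 and 0.44). Both stayed past it in cells thinned to equal depth, with log2 ratios of 1.07 (0.58 to 1.56) for Med15 and 0.81 (0.38 to 1.25) for Med12. For Med6 and Ccnc, giving every cell the same depth brought the log2 ratios to 0.17 (-0.17 to 0.50) and -0.15 (-0.66 to 0.36). Med20 likewise went to -0.31 (-0.65 to 0.02). Cdk19 stayed past 1.5-fold at equal depth with a smaller ratio, at 34.7 and 53.0 CPM with a log2 ratio of 0.61 (0.33 to 0.89), and was detected in 19.7% of WT cells (15 to 25.1) and 28.2% of KO cells (22.5 to 34.4). Its highest KO cell held 169 of 827 UMIs, and without the highest cell of each pool the log2 ratio was 0.62.

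Read by share of cells, the widest gaps were those of members not called by level. With 1 member lower without overlap of intervals and 0 higher, nothing particular to Mediator is read from this count. Med30 was found in 34.4% of WT cells (28.6 to 40.5) and 21.4% of KO cells (16.3 to 27.2) and was the 1 member whose intervals did not overlap, where 4.24% of all genes were lower in this way and 3.07% higher. Its level was 36.6 CPM in WT and 25.6 CPM in KO, a log2 ratio of -0.52 (-0.69 to -0.34), and of -0.23 (-0.42 to -0.04) once cells with oocyte transcripts were left out. The difference of KO minus WT, -13 percentage points, was -5.11 when cells were thinned to 10000 UMIs and -5.59 when a cell needed 2 UMIs to count. Point values were lower in KO for 23 members and higher for 10, where 53.2% of all genes were lower and 46.0% higher, but the split was 17 and 16 without the cells with oocyte transcripts and 18 and 15 at 10000 UMIs. Among the wider gaps with overlapping intervals, Med25, a tail subunit that binds activation domains, had shares of 38.6% (32.6 to 44.8) and 26.9% (21.4 to 33.1), Med29 in 36.3% and 26.1%, and Med13l in 36.7% (30.8 to 42.9) and 49.1% (42.6 to 55.7). Med25 was nearly level between the pools by summed UMIs (59.8 and 55.9 CPM), and at equal depth its log2 ratio was -0.56 (-0.82 to -0.30). Its difference in shares of cells was -11.7 points, and -3.82 at 10000 UMIs.

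The lower level of Med27 to Med30 moved with the cells that hold oocyte transcripts. All 4 genes had log2 ratios below 0, and their sum went from 478 CPM (469 to 487) in WT to 369 CPM (359 to 378) in KO, a log2 ratio of -0.37 (-0.42 to -0.33). Among WT cells alone, the 4 genes summed to 793 CPM in the 64 cells with oocyte transcripts and 375 CPM in the other 195 cells. Without the cells with oocyte transcripts, WT and KO gave 375 and 369 CPM, a log2 ratio of -0.021 (-0.073 to 0.031). Med27 moved most, at 128 CPM in the WT cells with oocyte transcripts and 25 CPM in the other WT cells, and 62.6% of its WT UMIs lay in those 64 cells. Its log2 ratio without them was 0.43 (0.24 to 0.62). Med28 then gave -0.016 (-0.079 to 0.047), Med29 -0.16 (-0.29 to -0.03) and Med30 -0.23 (-0.42 to -0.04), so the sum near no change joins members on both sides of it. The KO pool had only 3 such cells, so leaving them out changed the WT pool far more. The share of cells with Med30 was as far apart without them, at 33.8% and 21.2%. Med13l then joined it, at 33.3% of WT cells (26.8 to 40.4) and 49.8% of KO cells (43.2 to 56.4). By this rule 2.44% of all genes were higher and 2.59% lower, and nothing particular to Mediator is read from these 2 members.

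The WT cells with oocyte transcripts differed from other WT cells in further Mediator genes. By the 1.5-fold rule, 12 members were higher in them and 4 lower, where 20.1% of all genes were higher and 23.9% lower. Besides Med27, the larger excesses were those of Med26, the subunit that links Mediator to elongation factors (41.5 and 16.1 CPM, log2 1.37), Med10 (134 and 63.6 CPM, log2 1.07) and Med18 (20.9 and 9.95 CPM, log2 1.07). Lower were Med12l (1.32 and 9.09 CPM, log2 -2.78), Med14 (4.34 and 15.9 CPM, log2 -1.88), Med23 (3.40 and 6.43 CPM, log2 -0.92) and Med11 (40.6 and 61.8 CPM, log2 -0.61). For Med12l, 1 of the other WT cells held 67 of its 154 WT UMIs, and the cells with oocyte transcripts held 7. The cells were set apart by the oocyte list, which holds no Mediator gene. Their libraries cannot be told from the table, but most of them lie close together, late in its order of WT cells. Whether they share a library was not tested.

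**Figure D4:**
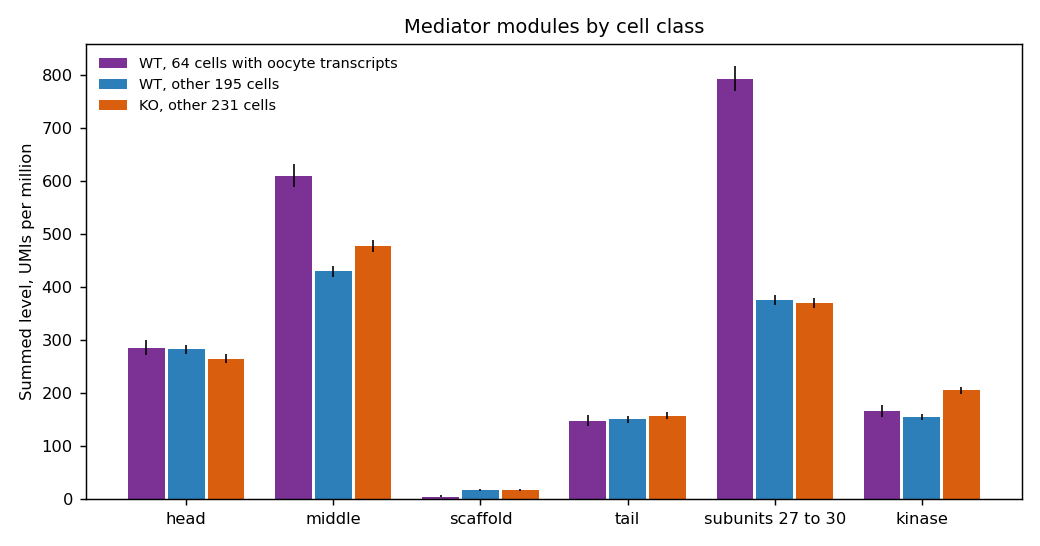
Summed level of each Mediator module, in CPM, in the 64 WT cells with over 1000 CPM of oocyte transcripts (purple), the other 195 WT cells (blue) and the other 231 KO cells (orange), with 95% Poisson counting intervals. Med27 to Med30 reach 793 in the first class against 375 and 369 in the others, and the kinase module is highest in the KO cells.

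With these cells left out, 4 members were called higher, again Cdk19, Med15, Med12 and Med6, and 2 lower, Ccnc and Med20, against 18.2% and 14% of all genes. All 6 had been called with every kept cell. The medians of the log2 ratios were then 0.025 over the members and 0.034 over all genes, and the summed Mediator UMIs turned from lower to higher in KO, with a log2 ratio of 0.083 (0.057 to 0.11). Cdk19 gave 0.82 (0.66 to 0.99), Med12 0.73 (0.49 to 0.96) and Ccnc -0.73 (-1.01 to -0.45).

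The kinase module was the only module whose summed level was higher in KO with an interval above 0 both with and without those cells. It went from 157 CPM (152 to 162) to 204 CPM (197 to 211), a log2 ratio of 0.38 (0.31 to 0.45), and 0.41 (0.33 to 0.48) once the cells with oocyte transcripts were left out. At equal depth 68.7% of WT and 76.5% of KO cells held at least 1 UMI of it. The sum was carried by Cdk19 and by Med13l, one of the alternative subunits that tie the kinase to the core, which was the most abundant of the 7 genes. Med13l gave 62.7 CPM in WT (59.4 to 66.2) and 87.4 CPM in KO (82.9 to 92.1), a log2 ratio of 0.48 (0.37 to 0.59). This ratio stayed between 0.45 and 0.55 in all 9 alternatives. Of these, median of ratios, upper quartile and TMM shift every gene alike and could not move it on its own. Med12, described above, was also higher. Med13 gave 22 and 19.7 CPM (log2 -0.16, -0.37 to 0.05), Med12l a log2 ratio of -0.12 (-0.49 to 0.25) and Cdk8 one of -0.38 (-0.83 to 0.06). With every kept cell, 3 of the 7 genes thus had ratios above 0 and 4 below. This split depended on the cells summed: 6 of 7 lay above 0 in cells thinned to equal depth, with Ccnc below, 5 of 7 when each gene's top cells were left out and 4 of 7 without the cells with oocyte transcripts. Cdk8 gave 0.67 (-0.14 to 1.5) in thinned cells, and Med12l gave 0.69 without its top cells.

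Each position of the kinase module that has paralogues had one of them as its main transcript. Cdk19 exceeded Cdk8 by 4.87-fold in WT (3.99 to 5.98) and 12.0-fold in KO (9.37 to 15.6). In cells thinned to equal depth the pools lay closer, with log2 ratios of Cdk19 over Cdk8 of 2.97 and 2.91, so that the gap between WT and KO was not seen at equal depth. Med13l exceeded Med13 by 2.85-fold (2.57 to 3.18) and 4.45-fold (3.93 to 5.04). A single WT cell held 119 of the 472 Med13 UMIs (25.2%). In thinned cells Med13l gave 65.6 and 93.6 CPM and Med13 19.7 and 22.9 CPM, a smaller gap between WT and KO. Med12 exceeded Med12l by 2.19-fold (1.81 to 2.67) and 3.71-fold (2.99 to 4.64). The WT value for Med12 and Med12l turned on the single cell with 67 Med12l UMIs, and was 1.79 in place of 1.13 on the log2 scale without the highest cell of each gene. The last exon of Med12l lies opposite an exon of Igsf10. In thinned cells, Cdk19 and Cdk8 were found together in 3 of 259 WT cells and 5 of 234 KO cells, Med12 and Med12l in 3 and 4, and Med13 and Med13l in 14 and 23. The product of the separate shares gives 2.36 and 4.51 cells for the kinases, 2.22 and 2.47 for the Med12 pair and 13.2 and 20.6 for the Med13 pair. The counts of cells with both paralogues were thus close to what their separate shares give.

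Of the other modules, the head had a log2 ratio of -0.096 (-0.15 to -0.039), the middle of 0.012 (-0.031 to 0.055) and the tail of 0.081 (0.005 to 0.16). No middle subunit passed the threshold. The largest middle values were those of Med9 (50.2 and 65.8 CPM, log2 0.39) and Med31 (28.0 and 35.4 CPM, log2 0.34), which were higher in KO (Med31 0.52 without the cells with oocyte transcripts), and of Med26 (22.4 and 15.8 CPM, log2 -0.50), which was lower and gave -0.027 without the cells with oocyte transcripts. Med1, the subunit contacted by nuclear receptors, gave 41.6 and 49.1 CPM, a log2 ratio of 0.24 (0.10 to 0.38), and 0.46 (0.30 to 0.61) without those cells. Med14 gave 0.37 (0.12 to 0.61), and 0.088 (-0.16 to 0.34) when the cells with oocyte transcripts, in which it was scarce, were left out.

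Across cells of the same pool the members showed little correlation with each other. Over the 528 pairs, Spearman's rho of the thinned counts had a median of 0.014 in the 259 WT cells and 0.003 in the 234 KO cells, against 0.002 and 0.001 over pairs of all genes. The highest values were 0.23 for Med18 and Med22, 0.20 for Med20 and Med12 and 0.20 for Med20 and Med26 in WT. In the KO pool they were 0.18 for Med7 and Med12, 0.16 for Med18 and Med21 and 0.15 for Med29 and Cdk8. None of these 6 pairs was high in both pools: Med18 and Med22, for instance, gave -0.077 in KO cells. The points share libraries and sparse counts, and correlations of this size in such counts are no finding.

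**Figure D5:**
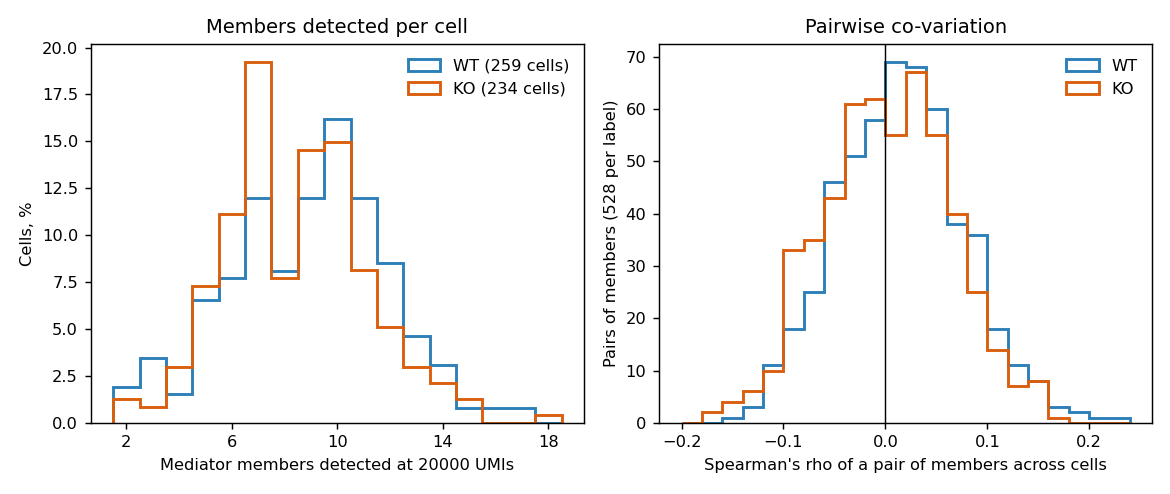
Left, distribution of the number of the 33 Mediator transcripts detected per cell at 20000 UMIs, as a percentage of 259 WT cells (blue) and 234 KO cells (orange), with medians of 9 and 8. Right, distribution of Spearman's rho over the 528 pairs of members across cells of each pool, centred near 0.

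Genes that work with Mediator were set beside the members. The list held Elk factors and Srf, cohesin, kinases and elongation factors of the polymerase, general factors, coactivators and the immediate early genes for which Med23 is best known, and 28 of its 30 genes were in the table. By the same 1.5-fold rule 6 were higher in KO and 2 lower, and 20 were neither, with a median log2 ratio of 0.21. That is 21.4% higher and 7.14% lower, beside 17.2% and 15.5% of all genes, whose median was 0.02. The list was chosen with earlier results of these data known, and the study had itself reported lower Egr1. Nothing is therefore read from these counts. Among the immediate early genes, Fos went from 110 to 345 CPM (log2 1.65) and Junb from 78.2 to 165 CPM (1.08), while Egr1 went the other way, from 22 to 8.41 CPM (-1.39). Srf, the partner of Elk1 at these genes, went from 5.31 to 12.5 CPM (1.24), whereas Elk1 itself gave 7.03 and 8.03 CPM (0.19, -0.16 to 0.54). The elongation factors Ell2 (3.31 and 15.5 CPM, log2 2.22) and Ell (16.5 and 25.3 CPM, log2 0.62) were higher, as was the cohesin subunit Rad21 (35.9 and 57.0 CPM, log2 0.67). Cdk7, the kinase of TFIIH, had 363 CPM in WT and 70.1 CPM in KO (log2 -2.37), and the log2 ratio was -0.51 without the cells with oocyte transcripts. The counts without these cells were also 6 and 2, with Stag2 (0.69) in place of Rad21 (0.58) and Tbp (-0.68) in place of Cdk7.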

How the data were processed

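Libraries were primed with barcoded oligo-dT, so each UMI is a 3′ tag of 1 molecule. The authors aligned reads to the mm9 transcriptome, removed duplicates by UMI, filtered cells and genes, and normalized. The deposited values are log2 of normalized UMIs plus 1; aligner, normalization method and counting strand are not given in the sources used here. Dividing each cell's unlogged values by its smallest step gave whole counts for 100% of values (tolerance 0.01). The study's cell limits (2000 genes, 20000 UMIs), applied to the genes in the table, left out 93 of 586 cells.

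UMIs were summed per genotype and compared as log2 ratios with exact (Clopper-Pearson) intervals, and single levels have exact Poisson intervals. For shares and correlations each cell was thinned at random to 20000 UMIs. Members called at 1.5-fold, Med23, the 3 most and 3 least abundant, the kinase module and the 3 highest pairs of each pool were to be named, and others were named after their values were seen. In the GENCODE M21 annotation the last exons of Med7, Med10, Med19, Med26, Med12, Med12l and Ccnc overlap an exon of another gene. By blastn 2.17.0, the last 500 bases of Med16 share 150 or more bases at 90% identity or more with transcripts of 372 other genes and those of Med18 with 4, so these levels are uncertain. Members, modules and lists were chosen with earlier results of these data known. Ratio code was tested on simulated data (Python 3.11.15, numpy 2.4.6, scipy 1.17.1, pandas 2.3.3).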

Additional observations from a re-analysis of the deposited data

How the results depend on the processing

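No paired analysis was possible because the cells cannot be assigned to libraries, and leaving out libraries in turn was not run. Over 9 alternatives, 18 of the 33 members kept the sign of their log2 ratio (8 higher, 10 lower) and 15 did not. Scaling by median of ratios, upper quartile or TMM shifted every log2 ratio by 0.021 to 0.029 and changed no member's call. With the authors' normalized values averaged over cells the median log2 ratio of all genes was -0.14. Values given for that setting are not corrected for this median, so their signs and calls are to be read beside it.

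The number of members called (4 higher, 3 lower) was 2 higher (Med6 and Cdk19) and 4 lower (Med20, Med27, Med29 and Ccnc) at 3000 genes and 30000 UMIs, 0 higher and 6 lower (Med20, Med22 and Med27 to Med30) with the authors' values, 2 higher (Cdk19 and Med12l) and 1 lower (Med22) without each gene's top cell, 3 higher (Med15, Med12 and Cdk19) and 1 lower (Med30) in thinned cells, and 0 either way at 2-fold. The log2 ratio of the summed Mediator UMIs was -0.089 at the stricter minimum, -0.088 by median of ratios, -0.089 by TMM, -0.31 with the authors' values and, reversed, 0.083 without cells with oocyte transcripts. With the authors' values the median of the members was -0.24, the head -0.27, the middle -0.26, Med27 to Med30 -0.76, the kinase module 0.28 and the tail, reversed, -0.11. Med27 to Med30 gave -0.43 at the stricter minimum and -0.31 without the top cells, the middle -0.060 and the kinase module 0.48 in thinned cells, and the head -0.16 and the kinase module 0.31 without the top cells. Without cells with oocyte transcripts Med27 to Med30 gave -0.021, the middle 0.15 and Med14 0.088. Single members whose interval had left out 0 and whose sign turned were Med11 (0.014) and Med18 (0.20) in thinned cells, Med1 (-0.13), Med9 (-0.071) and Med19 (-0.020) with the authors' values, and Med18 (0.025) and Med27 (0.43) without cells with oocyte transcripts. The other 9 that took both signs had intervals holding 0, among them Med12l (-0.45 to 0.69), Cdk8 (-0.57 to 0.67), Med23 (-0.40 to 0.34), Med13 (-0.25 to 0.24) and Med10 (-0.42 to 0.24).

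The median share of cells over members, 23.9% WT and 24.8% KO, was 36.3% and 32.9% without thinning, 18.6% and 17.0% at 10000 UMIs and 13.9% and 15.4% with at least 2 UMIs. The log2 ratio of Cdk19 over Cdk8 was 2.97 (WT) and 2.91 (KO) in thinned cells. That of Med12 over Med12l was 1.79 without the top cells and 0.71 without cells with oocyte transcripts (WT), and 1.51 in thinned cells (KO). That of Med13l over Med13 (WT) was 1.74 in thinned cells, 1.84 without the top cells and 1.74 without cells with oocyte transcripts. Apart from the numbers that follow from leaving out cells, the cause of these changes was not tested. At this depth a member under 10 CPM is missed in most cells, and its share of cells says little of its level.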
